A study of Mus musculus with 7 samples.

Results

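Expression of 9 genes that mark and direct the macrophage lineage was followed in macrophages sorted from mouse colon: the receptors Cx3cr1, Csf1r and Adgre1, the integrin chains Itgam and Itgax, the transcription factors Spi1 and Maf, and the TGF-beta receptors Tgfbr1 and Tgfbr2. The genes were taken by symbol from a fixed list, as 9 of the 19938 genes that the array's probe sets name singly, and each had 1 probe set of its own. A further 3 probe sets carry Itgam together with the ribosomal gene Rpl35 and were not used. All values are log2 intensities, so a difference of 1 is a 2-fold difference.

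The 7 arrays came from C57BL/6 mice of 6 weeks, whose cells were isolated from the colonic lamina propria by flow cytometry. Il10ra_mKO (2 arrays) stands for CX3CR1cre:IL10Raflox/flox mice, in which Cre recombinase made from the Cx3cr1 locus deletes the IL-10 receptor alpha chain. It is set against WT resident (3 arrays), from Cx3cr1gfp/+ mice, which have GFP in place of 1 Cx3cr1 allele. Both were labelled resident macrophages. Il10_KO (1 array) stands for IL10-/- CX3CR1gfp/+ mice and is set against WT CX3CR1hi (1 array), again from Cx3cr1gfp/+ mice, and both were labelled CX3CR1hi macrophages. Every animal thus carried an altered Cx3cr1 allele, with GFP in WT and Il10_KO and Cre in Il10ra_mKO, and the labels do not say whether the other allele of the Cre mice was intact. No array carried Cre alone, so the allele and the deletion cannot be told apart. Cre follows Cx3cr1 activity and is not limited to cells of the gut. Which surface markers gated the resident cells is not given in the labels.

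Macrophages arise under PU.1, the product of Spi1, which opens the myeloid programme and drives genes such as Csf1r and Itgam. CSF1R binds CSF1 and IL-34 and keeps macrophages alive, and CX3CR1, the fractalkine receptor, is abundant on mature resident macrophages of the gut. Monocytes that enter the colon mature there under TGF-beta, which signals through a pair of receptor kinases to SMAD proteins, and IL-10 restrains the inflammatory response of the mature cells.

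The sorted cells carried the transcripts that define macrophages in every array. All 13 measured resident macrophage markers exceeded log2 5.86, the median of the deposited values, in every array. Their lowest value was 6.04, for Cd163 in Il10ra_mKO array 2. Their mean level was 10.52 and 10.66 in Il10ra_mKO, 10.73 to 10.94 in WT resident, 11.11 in Il10_KO and 11.03 in WT CX3CR1hi. Epithelial transcripts were abundant as well. The mean of the 14 epithelial markers, none of them below log2 5.86 throughout, was 10.67 and 8.82 in Il10ra_mKO arrays 1 and 2, against 10.61 to 10.98 in WT resident, and 10.82 in Il10_KO against 11.41 in WT CX3CR1hi. Il10ra was at 8.05 and 7.04 in Il10ra_mKO and at 10.56 to 11.12 in WT resident, the direction its label gives. The 12 dendritic cell markers, 3 of them below log2 5.86 throughout, averaged 6.96 and 7.17 in Il10ra_mKO and 6.60 to 6.79 in WT resident. Zbtb46, their defining transcription factor, is 1 of the 3, at 4.73 in all 5 resident arrays. A value this near the floor does not say whether such cells were present or differed. Other markers of the list differed in both directions, as given below. The 6 measured monocyte markers averaged 7.995 and 7.34 in Il10ra_mKO and 7.72 to 7.86 in WT resident, and the 12 neutrophil markers, 7 of them below log2 5.86 throughout, 6.07 and 5.72 against 5.51 to 5.55. The part of these cells in the values below was not tested. In sorted populations of this kind, fewer cells of a type and less RNA per cell cannot be told apart.

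**Figure D1:**
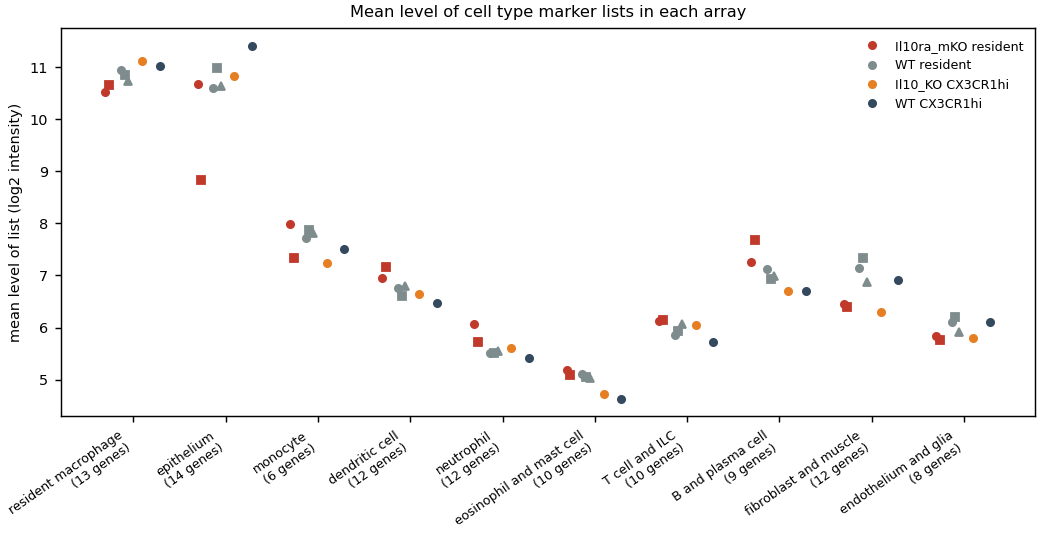
Mean log2 level of each cell type marker list (number of measured genes in brackets) in each of the 7 arrays, with the marker shape giving the array number within its group. Macrophage and epithelial lists lie highest, and the epithelial mean of Il10ra_mKO array 2, at 8.82, lies below those of the other 6 arrays.

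The first comparison asks how colonic resident macrophages differ when they lack the IL-10 receptor. All 9 lineage genes were bright in every array, at log2 10.00 to 12.51, and 0 of 9 passed in Il10ra_mKO against WT resident by limma at an adjusted p under 0.05. Over all genes tested 0.00502% passed, which is 1 gene, Fcrls, an Fc receptor-like gene outside the 9. At an unadjusted p under 0.05 there was 1 of 9, Cx3cr1, where 7.92% of all genes met that limit. The differences ran from -0.49 for Cx3cr1 to 0.46 for Itgax, so that 0 of 9 reached 2-fold, a size that 2.39% of all genes reached. Of the 9 genes 6 were lower and 3 higher, with a median of -0.15, while the median over all genes was 0. Both Il10ra_mKO arrays lay above all 3 WT arrays for 0 of the 9 (8.92% of all genes) and below them for 2 of the 9, Cx3cr1 and Itgam (8.50% of all genes). With 9 genes such counts describe these genes and were not tested as a list.

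**Figure D2:**
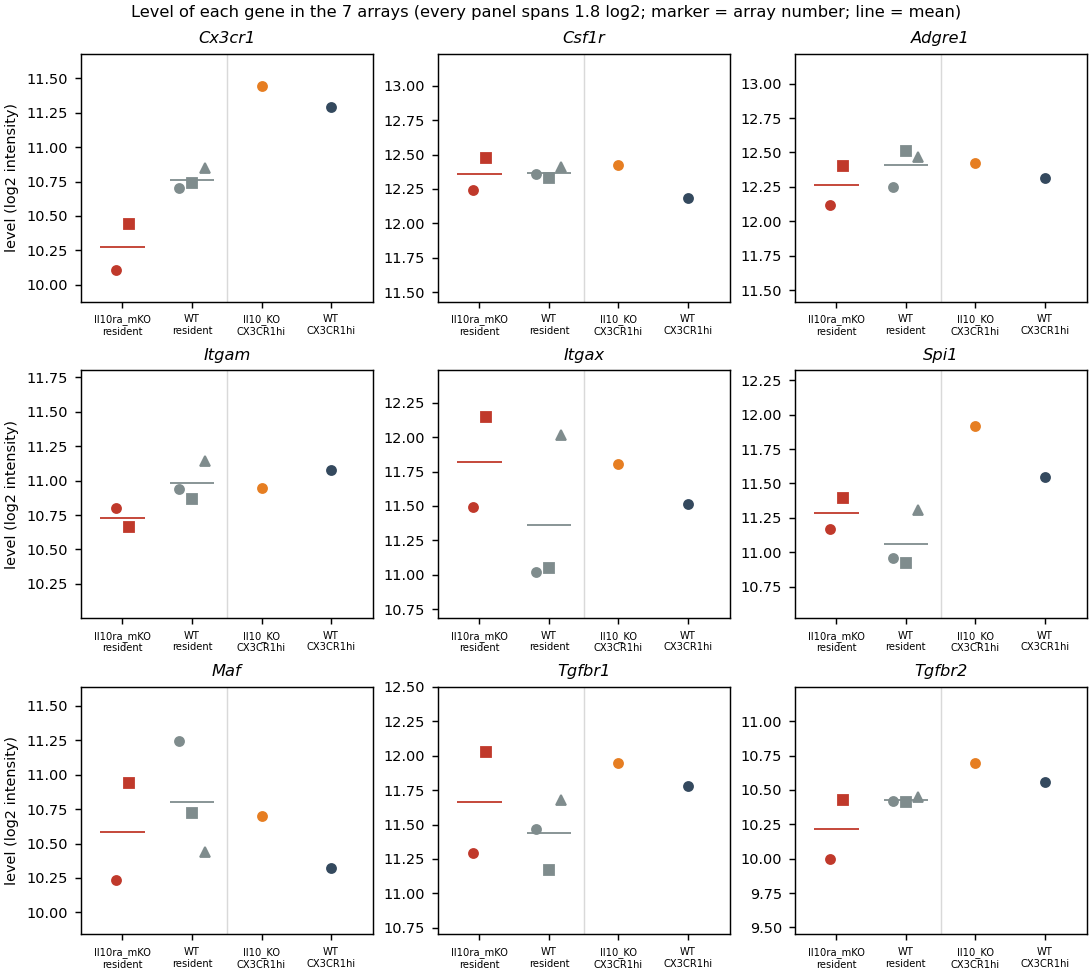
Log2 level of each of the 9 genes in the 7 arrays, with 1 panel for each gene, every panel spanning the same height, and a line at the mean of groups with more than 1 array. The Il10ra_mKO arrays lie apart from WT resident for Cx3cr1 and Itgam and overlap it for the other 7 genes.

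Cx3cr1 had the largest difference of the 9 with the values as deposited, though not in every setting: Itgax was larger with a common median (0.51, against -0.44 for Cx3cr1), without WT array 3 (0.78 against -0.45) and without Il10ra_mKO array 1. Its level was 10.11 and 10.44 in the Il10ra_mKO arrays, against 10.70, 10.74 and 10.85 in WT resident. The groups did not overlap, and the WT arrays lay closer together than the Il10ra_mKO arrays. The difference was -0.49 ± 0.13 (SE, n = 2 and 3 arrays), 1.40-fold lower, with a 95% interval of -0.85 to -0.13 before any adjustment for multiple tests, and it did not pass (limma adjusted p = 0.486). Leaving out array 1 of Il10ra_mKO gave -0.32, and leaving out array 2, which had the lower epithelial mean, gave -0.66. In the CX3CR1hi arrays Cx3cr1 stood at 11.45 in Il10_KO and 11.29 in WT, above every resident array. The sort label names CX3CR1, so the gap between the sort labels is a description and no finding. The position of the probes relative to the part of the gene that GFP or Cre replaces was not analysed here.

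The promoter windows of 3 members are shown as the letters in which a PU-box, the sequence that PU.1 binds, was looked for: Cx3cr1 and Itgam because their arrays separated, and Itgax as the relative of Itgam. They are RefSeq windows of build GRCm38.p6 from 250 bases before to 50 after the start of the gene. Windows of 5 of the 9 genes were read, and none of Csf1r, Adgre1, Spi1 or Maf. The selection did not cover every chromosome, so a window of another member can have been left out. The capitals mark GAGGAA or its reverse complement TTCCTC.
Cx3cr1, chr9:120068247-120068546, minus strand: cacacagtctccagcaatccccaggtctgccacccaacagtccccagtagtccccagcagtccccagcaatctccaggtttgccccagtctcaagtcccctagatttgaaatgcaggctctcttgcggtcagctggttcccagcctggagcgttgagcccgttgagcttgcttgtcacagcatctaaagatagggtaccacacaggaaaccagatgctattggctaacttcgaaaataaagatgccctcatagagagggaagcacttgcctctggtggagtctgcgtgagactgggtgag
Itgam, chr7:128062390-128062689, plus strand: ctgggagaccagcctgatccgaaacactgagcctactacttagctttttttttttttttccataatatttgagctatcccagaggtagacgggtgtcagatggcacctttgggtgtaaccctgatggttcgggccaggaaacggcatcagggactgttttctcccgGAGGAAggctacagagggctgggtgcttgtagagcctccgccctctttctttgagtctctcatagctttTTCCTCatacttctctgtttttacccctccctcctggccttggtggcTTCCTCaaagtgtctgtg
Itgax, chr7:128129300-128129599, plus strand: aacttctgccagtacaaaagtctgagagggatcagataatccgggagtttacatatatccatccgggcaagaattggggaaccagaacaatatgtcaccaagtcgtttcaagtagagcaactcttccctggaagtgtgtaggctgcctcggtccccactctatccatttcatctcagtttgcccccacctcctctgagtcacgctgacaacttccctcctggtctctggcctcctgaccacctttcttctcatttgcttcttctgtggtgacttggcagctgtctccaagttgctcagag

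The Itgam window held 3 matches, at 84 and 15 bases before the start and 33 bases after it, and the Cx3cr1 and Itgax windows held 0. Among all 32851 windows of the table, 28.3% held at least 1 match on either strand and 0.685% held 3 or more. Of the 6 windows of members that were read, 3 held a match, the others being Tgfbr2 and 1 of the 2 windows of Tgfbr1. The MAF half-site TGCTGAC, in 4.67% of all windows, and the SMAD palindrome GTCTAGAC, in 0.213%, were in 0 of the 6. A match is a description of the letters, and no binding was measured.

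Csf1r, the receptor for CSF1 and IL-34, was at 12.24 and 12.48 in Il10ra_mKO and at 12.36, 12.33 and 12.41 in WT resident. One Il10ra_mKO array lay below the WT arrays and the other above them. The difference was -0.01 ± 0.09 (SE), with a 95% interval of -0.27 to 0.25, which makes it the member with the narrowest interval. It turned to between 0.01 and 0.11 in 4 of the 14 other settings tried, all without passing. Adgre1, which encodes an adhesion receptor used as the classical surface marker of mouse macrophages, was at 12.12 and 12.40 in Il10ra_mKO and at 12.25, 12.51 and 12.47 in WT resident. The groups overlapped, with a difference of -0.15 ± 0.14 (SE) and a 95% interval of -0.54 to 0.24 (limma adjusted p = 0.740). Leaving out array 1 of Il10ra_mKO gave -0.0084, and leaving out array 2 gave -0.29.

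The integrin chains Itgam (CD11b) and Itgax (CD11c) each pair with Itgb2 to form an adhesion and complement receptor, and Itgax is shared with dendritic cells. Itgam was at 10.80 and 10.66 in Il10ra_mKO and at 10.94, 10.87 and 11.14 in WT resident, so the arrays did not overlap. The gap between the nearest arrays was small beside the spread within WT, and the difference of -0.25 ± 0.11 (SE, 95% interval -0.56 to 0.06) did not pass (limma adjusted p = 0.678). Itgax was at 11.49 and 12.15 in Il10ra_mKO and at 11.02, 11.05 and 12.01 in WT resident. In each group 1 array stood well above the rest, and the groups overlapped. The difference was 0.46 ± 0.43 (SE, limma adjusted p = 0.748) with a 95% interval of -0.77 to 1.68, which spans more than 2-fold on its upper side. Leaving out array 1 of Il10ra_mKO gave 0.79 and leaving out array 2 gave 0.13.

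Spi1 encodes PU.1, and Maf encodes c-MAF, a basic leucine zipper factor that macrophages share with some T cells. Spi1 was at 11.17 and 11.39 in Il10ra_mKO and at 10.95, 10.92 and 11.31 in WT resident. The groups overlapped only through WT array 3, with a difference of 0.22 ± 0.16 (SE, 95% interval -0.24 to 0.68, limma adjusted p = 0.684). It was 0.11 without Il10ra_mKO array 2, 0.33 without Il10ra_mKO array 1 and 0.34 without WT array 3, and 0.10 with the 4 WT arrays as 1 group. Maf was at 10.23 and 10.94 in Il10ra_mKO and at 11.25, 10.72 and 10.44 in WT resident. Its arrays spread widely in both groups and overlapped, and the difference of -0.22 ± 0.36 (SE, 95% interval -1.23 to 0.80) turned to 0.14 without Il10ra_mKO array 1 and to 0.0066 without WT array 1 (limma adjusted p = 0.839 with all arrays).

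Tgfbr1 and Tgfbr2 encode the type I and type II receptor kinases for TGF-beta. Tgfbr1 was at 11.29 and 12.03 in Il10ra_mKO and at 11.47, 11.17 and 11.68 in WT resident. Array 2 of Il10ra_mKO lay above all WT arrays and array 1 lay within their range. The difference was 0.22 ± 0.30 (SE, 95% interval -0.62 to 1.06, limma adjusted p = 0.796), and it was -0.15 without Il10ra_mKO array 2 and 0.59 without array 1. Tgfbr2 was at 10.00 and 10.42 in Il10ra_mKO and at 10.42, 10.41 and 10.45 in WT resident. Its 3 WT arrays hardly differed, and Il10ra_mKO array 1 alone lay below them. The difference of -0.21 ± 0.14 (SE, 95% interval -0.62 to 0.20, limma adjusted p = 0.678) was -0.42 without array 2 and -0.0015 without array 1.

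**Figure D3:**
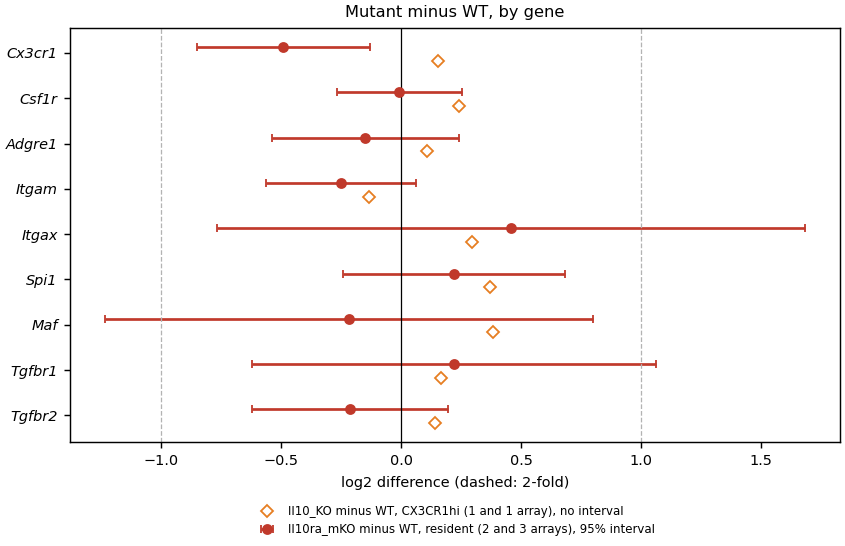
Log2 difference between mutant and WT for each of the 9 genes, with the 95% interval from limma for the resident comparison and the bare difference for the CX3CR1hi comparison, which has 1 array on each side. The interval of Cx3cr1 is the only one that does not include 0, and no difference reaches the dashed lines at 2-fold.

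The resident arrays also differed among themselves. Of the 9 genes 8 were higher in Il10ra_mKO array 2 than in array 1, Itgam being the exception, where 40.0% of all genes were. The sample numbers in the titles fall into runs of neighbours, 54 to 56 (Il10ra_mKO array 1 with WT arrays 1 and 2) and 67 to 68 (Il10ra_mKO array 2 with WT array 3), and the labels do not say what a run stands for. WT array 3 lay above WT arrays 1 and 2 for 7 of the 9 genes, against 26.2% of all genes, most for Itgax, where it was 0.98 higher than their mean. Within the runs Itgax was 0.45 higher in Il10ra_mKO than in WT in the first and 0.14 higher in the second. For Cx3cr1 the difference was -0.61 in the first run and -0.41 in the second, and with the run as a block its difference was -0.53 (limma adjusted p = 0.242). For Itgam the differences were -0.10 and -0.48, and for Spi1 0.23 and 0.08. For Adgre1 they were -0.26 and -0.07, and for Tgfbr2 -0.41 and -0.02, so 6 of the 9 genes had the same direction in both runs. The share of all genes that did so was not counted, and the second run has 1 array on each side. The 6 are therefore not read as a result about these genes. For Maf the difference was -0.75 in the first run and 0.50 in the second, for Csf1r -0.10 and 0.07, and for Tgfbr1 -0.03 and 0.35. The epithelial mean was close to WT in Il10ra_mKO array 1 and below it in array 2, and its part in these values was not tested.

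**Figure D4:**
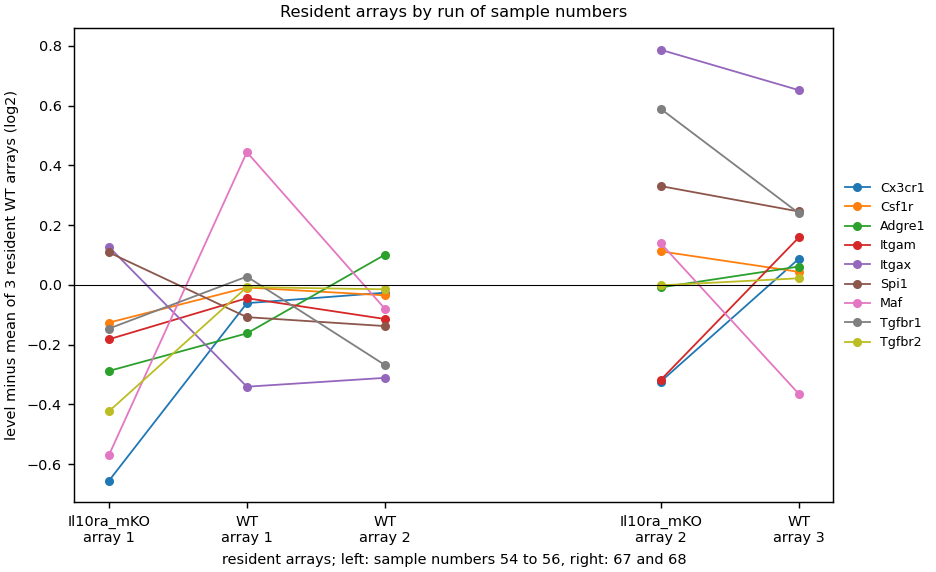
Log2 level of each of the 9 genes in the 5 resident arrays, as the difference from the mean of the 3 WT arrays, with the arrays placed by run of sample numbers and lines joining arrays of a run. Cx3cr1 and Itgam lie below their WT neighbours in both runs, and Itgax is high in both arrays of the run 67 to 68.

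The second comparison asks how colonic macrophages differ in mice without IL-10. It has 1 array on each side, so differences have no replicate check and no test. Of the 9 genes 0 reached 2-fold in Il10_KO against WT CX3CR1hi, where 1.92% of all genes did. The differences ran from -0.14 for Itgam to 0.38 for Maf with a median of 0.17, against a median of 0.03 over all genes, and 8 of the 9 were higher in Il10_KO, where 56.3% of all genes were. Spi1 was at 11.92 in Il10_KO and 11.55 in WT (difference 0.37), Maf at 10.70 and 10.32 (0.38), and Itgax at 11.81 and 11.51 (0.30). Csf1r was at 12.42 in Il10_KO and 12.18 in WT (0.24), Tgfbr1 at 11.94 and 11.78 (0.17), and Tgfbr2 at 10.70 and 10.55 (0.14). Adgre1 was at 12.42 in Il10_KO and 12.31 in WT (0.11). Itgam, the only one lower, was at 10.94 in Il10_KO and 11.08 in WT. The difference was no larger than the span of the WT resident arrays of the same gene for Adgre1, Itgam, Itgax, Spi1, Maf and Tgfbr1, whose 3 arrays spanned 0.26 to 0.99, and larger than that span for Cx3cr1, Csf1r and Tgfbr2, whose arrays spanned 0.04 to 0.15.

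Among WT cells the sort labels were also set side by side. The WT CX3CR1hi array lay above all 3 WT resident arrays for Cx3cr1, Spi1, Tgfbr1 and Tgfbr2, 4 of 9 where 42.2% of all genes did so. It lay below them for Csf1r and Maf, 2 of 9 where 47.3% of all genes did so. Adgre1, Itgam and Itgax lay within the range of WT resident. The submitters used different RNA kits for the first samples and the rest, and as far as sample numbers follow the order of the series the kit coincides with the sort label, so that sort label and kit cannot be told apart. In order of level, Cx3cr1 ran from Il10_KO through WT CX3CR1hi and WT resident down to Il10ra_mKO, and Spi1 from Il10_KO through WT CX3CR1hi to Il10ra_mKO and WT resident, whose arrays overlapped. Tgfbr2 ran from Il10_KO through WT CX3CR1hi to the resident arrays, which overlapped. For Csf1r, Adgre1, Itgam, Itgax, Maf and Tgfbr1 at least 1 of the CX3CR1hi arrays lay within the range of the 5 resident arrays, so the groups had no clear order.

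The partners of these genes were read from 8 lists, chosen with earlier results of these data known, and 0 members of any list passed by limma in Il10ra_mKO against WT resident. The counts below stand beside shares over all genes of 7.92% at an unadjusted p under 0.05, 8.92% with both Il10ra_mKO arrays above the WT range and 8.50% with both below it. Among 13 measured ligands 0 were higher and 1 lower at an unadjusted p under 0.05, with a median difference of 0.01. The fractalkine gene Cx3cl1 was at 6.52 and 5.83 in Il10ra_mKO and 6.52 to 6.69 in WT resident, Csf1 at 5.81 and 5.96 against 5.77 to 5.81, and Il34 at 4.89 in both against 4.89 to 4.97, all near or below the midpoint of log2 5.86. Tgfb1 was bright, at 10.43 and 10.74 in Il10ra_mKO and 10.33 to 10.57 in WT resident. The ligand that met that limit was Fn1, the matrix protein fibronectin that integrins bind, at 8.75 and 8.26 in Il10ra_mKO against 9.72 to 10.22 in WT resident (-1.46 ± 0.23, SE, limma adjusted p = 0.326). The 12 fibroblast and muscle markers averaged 6.44 and 6.39 in Il10ra_mKO and 6.87 to 7.33 in WT resident, with 8 of 12 below the WT range, and their part in the Fn1 value was not tested.

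In the TGF-beta pathway 0 genes reached 2-fold. Of 24 measured genes 0 were higher and 1 lower at an unadjusted p under 0.05, and the median difference was -0.07. Smad3, a mediator of the signal, was at 8.75 and 8.78 in Il10ra_mKO and 8.74 to 8.78 in WT resident. Smad7, an inhibitor that the pathway induces, was at 7.60 and 8.17 in Il10ra_mKO and spread from 7.81 to 9.10 in WT resident. The gene with the smallest p was the co-receptor Tgfbr3, near the floor at 5.45 and 5.61 in Il10ra_mKO against 5.70 to 5.88 (-0.27 ± 0.08, SE, limma adjusted p = 0.551).

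The list of beta2 integrin partners and relatives holds integrin chains and the proteins that activate them. Of its 11 genes 4 were higher and 0 lower at an unadjusted p under 0.05 (7.92% of all genes in either direction), with a median of 0.11. Itgb2, the common partner of Itgam and Itgax, was at 11.10 and 11.38 in Il10ra_mKO, above 10.50 to 10.72 in WT resident (0.61 ± 0.13, SE, limma adjusted p = 0.407), and at 11.20 in Il10_KO against 10.66 in WT CX3CR1hi. Itgal (CD11a), another partner of Itgb2, was at 9.90 and 10.23 in Il10ra_mKO and 8.59 to 9.46 in WT resident (1.12 ± 0.32, SE), and it was 1.16 higher in Il10_KO. Itgb7, a chain of gut-homing integrins of lymphocytes, was at 6.88 and 7.29 in Il10ra_mKO and 5.31 to 5.96 in WT resident (1.44 ± 0.25, SE, limma adjusted p = 0.356). The last of the 4, named after its value was seen, was Fermt3, the kindlin that activates integrins of blood cells (0.36 ± 0.11, SE). The 10 measured T cell and ILC markers, 7 of them below log2 5.86 throughout, averaged 6.12 and 6.14 in Il10ra_mKO and 5.86 to 6.06 in WT resident, and the 9 B and plasma cell markers 7.25 and 7.68 against 6.93 to 7.12. Their part in these values was not tested.

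Among 11 receptors and signalling proteins listed for colony-stimulating factors 5 were higher and 0 lower at an unadjusted p under 0.05 (7.92% of all genes in either direction). The median was 0.42. The Il10ra_mKO arrays lay above the WT range for 8 (8.92% of all genes) and below it for 0 (8.50% of all genes). Csf3r, the G-CSF receptor, was at 9.60 and 10.01 in Il10ra_mKO and 8.33 to 8.98 in WT resident (1.07 ± 0.28, SE, limma adjusted p = 0.486). The others, named after their values were seen, were Csf2ra (0.48), Csf2rb2 (0.78), Tyrobp (0.33) and Grb2 (0.42), which encode receptor chains and adaptors. Csf3r is also 1 of the 12 neutrophil markers, whose means are given above, and their part in its value was not tested. In Il10_KO the median of this list was 0.42 as well, with 0 of 11 at 2-fold. Of the 4 genes listed with Adgre1, the adhesion receptors Adgre4, Adgre5 and Adgrl2 and the Adgre5 ligand Cd55, 3 lay below the WT range. Adgrl2, a latrophilin, was at 8.07 and 7.05 in Il10ra_mKO and 8.51 to 9.31 in WT resident (-1.42 ± 0.43, SE, limma adjusted p = 0.558). The difference was -0.67 with the mean of all probe sets of the gene and -0.91 without Il10ra_mKO array 2. The epithelial mean was likewise lower in Il10ra_mKO array 2 than in array 1, and its part in this value was not tested.

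Of 6 measured chemokine receptors 1 was higher and 0 lower at an unadjusted p under 0.05. That was Ccr7, which guides dendritic cells to lymph nodes, at 9.57 and 9.92 in Il10ra_mKO and 6.64 to 8.07 in WT resident (2.31 ± 0.50, SE, 4.96-fold, limma adjusted p = 0.421), and at 8.44 in Il10_KO against 6.38 in WT CX3CR1hi. Clec9a, a dendritic cell marker chosen here after its value was seen, stood at 8.58 and 9.32 in Il10ra_mKO against 5.65 to 6.34 in WT resident, and at 8.44 in Il10_KO against 5.80 in WT CX3CR1hi. Other markers of the list went the opposite way. Cd209a was at 6.47 and 7.16 in Il10ra_mKO against 8.63 to 9.65 in WT resident (-2.22 ± 0.42, SE), and at 5.69 in Il10_KO against 8.12 in WT CX3CR1hi (difference -2.43). Cd24a was at 9.92 and 9.44 in Il10ra_mKO against 10.46 to 11.12 in WT resident (-1.13 ± 0.27, SE). Of the 12 dendritic cell markers, which include Ccr7, 6 lay above (8.92% of all genes) and 3 below (8.50%) the WT resident range in Il10ra_mKO, and their part in the Ccr7 and Itgax values was not tested.

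Several transcription factors listed beside Spi1 and Maf differed by 2-fold or more, without passing. Of 40 measured factors 5 were higher and 1 lower at an unadjusted p under 0.05 (7.92% of all genes in either direction), with a median of 0.08. Of the 40, 12 lay above the WT resident range (8.92% of all genes) and 4 below it, close to the 8.50% of all genes. Nr1h3, the oxysterol receptor LXR-alpha, was at 9.48 and 10.06 in Il10ra_mKO and 7.75 to 8.39 in WT resident (1.70 ± 0.28, SE, limma adjusted p = 0.341), and at 8.95 in Il10_KO against 7.57 in WT CX3CR1hi. Tfec, a factor of the MITF family, was at 9.95 and 10.08 in Il10ra_mKO and 8.87 to 9.11 in WT resident (1.06 ± 0.10, SE, limma adjusted p = 0.214), and at 10.78 in Il10_KO against 9.71. Cebpb, a C/EBP factor of inflammatory gene expression, was 1.27 ± 0.42 (SE) higher, at 9.44 and 9.22 in Il10ra_mKO against 7.33 to 8.48. Id2, an inhibitor of helix-loop-helix factors, was 1.10 ± 0.43 (SE) higher, at 11.76 and 12.23 against 10.45 to 11.57. Irf8, a partner of PU.1, was at 10.86 and 11.13 in Il10ra_mKO and 10.50 to 10.80 in WT resident (0.38 ± 0.14, SE, limma adjusted p = 0.670). Named after their values were seen, Irf5 (0.49), the PU.1 relative Spic (0.76) and Mef2c (-0.60) also had an unadjusted p under 0.05.

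The list of core macrophage genes went both ways. Of 24 measured genes 2 were higher and 2 lower at an unadjusted p under 0.05 (7.92% of all genes in either direction), with a median of 0.06. Of the 24, 5 lay above (8.92% of all genes) and 5 below (8.50%) the WT resident range. Folr2, a folate receptor of resident macrophages, was at 7.52 and 6.60 in Il10ra_mKO and 9.31 to 10.24 in WT resident (-2.79 ± 0.44, SE, limma adjusted p = 0.324), and at 9.11 in Il10_KO against 9.93 in WT CX3CR1hi. Cd163, the haemoglobin scavenger receptor, was at 6.32 and 6.04 in Il10ra_mKO and spread from 6.64 to 8.90 in WT resident (-1.70 ± 0.76, SE, limma adjusted p = 0.678). Named after their values were seen, Mrc1, the mannose receptor, was at 11.25 and 11.84 in Il10ra_mKO and 12.26 to 12.42 in WT resident (-0.78 ± 0.21, SE), while the Fc receptor gene Fcgr1 (0.61) and Aif1 (0.64) were higher.

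**Figure D5:**
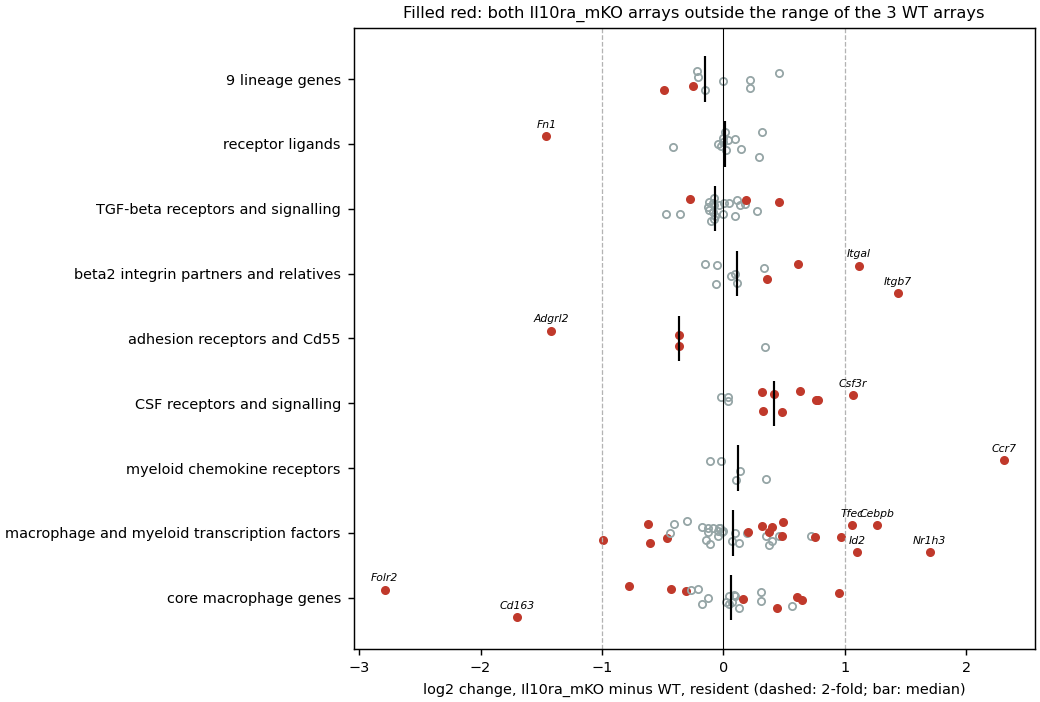
Log2 difference between Il10ra_mKO and WT resident for the 9 lineage genes and for each gene of the 8 partner lists, with a bar at the median of a list and filled points where both Il10ra_mKO arrays lie outside the WT range. The lineage genes lie within 0.49 of 0, and Ccr7, Nr1h3 and Folr2 are among the genes beyond 2-fold.

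Itgax and Maf were the members that varied by at least 2-fold across the 7 arrays once the WT mean of the same sort label was taken off, and the genes of most similar pattern were read for these. Itgax ran with Usp18, Gpr31b and H2-M2 (Pearson r of 0.99, 0.99 and 0.98), and Maf with Sorbs3, Stab1 and Klf2 (0.91, 0.88 and 0.88). These are descriptions over 7 arrays, 1 of which is 0 by construction, chosen as the highest among 1668 genes of that span, and arrays of a run share whatever sets the run apart. Usp18 was at 7.92 and 8.62 in Il10ra_mKO and at 7.41, 7.60 and 8.47 in WT resident, high in the same 2 arrays of the run 67 to 68 as Itgax. Stab1, a scavenger receptor, was at 10.65 and 11.28 in Il10ra_mKO and at 12.07, 11.71 and 11.17 in WT resident, with its WT arrays in the same order as those of Maf.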

How the data were processed

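RNA from sorted colonic macrophages was hybridised to 7 Affymetrix arrays. The deposited values are log2 intensities for each probe set, from 3.55 to 14.8. The submitters' processing notes name RMA and Partek. Versions, genome build and joint normalization were not given in the sources used here. RMA pulls low values together, so differences of dim genes are understated.

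Of 35399 rows 21789 have 1 gene symbol in the probe annotation, 1621 several and 11989 none. The brightest row of each gene was kept, which gave 19938 genes, and the 9 lineage genes, the 8 partner lists and the marker lists were looked up in it. The members and lists were chosen with earlier results of these data known. Sepp1 was found under its current symbol, Selenop. Il10ra_mKO and WT resident arrays were compared with limma 3.58.1 in R 4.3.3 (lmFit and eBayes with a variance trend) in a fit of all 7 arrays, with 4 groups of genotype and sort label, 3 residual degrees of freedom and 0.831 prior ones. Tests are two-sided, with p adjusted over all genes by Benjamini-Hochberg, with a threshold of 0.05. Intervals are not adjusted. The fit was tested on simulated data. Of 200 genes given a log2 change of 1, it recovered 119, with 4 false calls. The 200 were drawn from all 19938 genes, of which 10558 pass the brightness filter, each with its own spread. Dim genes can spread very little, and recovery among bright genes such as the 9 was not counted, so this share does not apply to them. Smaller changes were not simulated, and the differences of the 9 lineage genes were all smaller than 1. Il10_KO has 1 array and was described without a test. Group labels come from the sample sources, and replicate numbers only name arrays. Whether arrays are separate animals is not stated, so each p-value reflects the spread among these arrays alone, and this can be technical. No 2 arrays held identical values, and 7 arrays limit the precision of every value.

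Every lineage gene is given. From each partner list the text names genes at 2-fold or more whose Il10ra_mKO arrays both lay outside the WT range, up to 4 in each direction, or otherwise the gene with the smallest p, besides direct partners of the members. Alternatives were another row rule, a brightness filter (10558 genes above log2 5.86 in at least 2 arrays), other scalings, other variance models, other WT groupings, runs of sample numbers as a block, and each array left out.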

Additional observations from a re-analysis of the deposited data

Results flagged for a closer look

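Cx3cr1 went opposite ways in the comparisons. It was lower in both Il10ra_mKO arrays than in any WT resident array (difference -0.49), and higher in the Il10_KO array than in the WT CX3CR1hi array (difference 0.16). The difference between these differences was not tested, and the second rests on 1 array on each side. Csf1r, Adgre1, Maf and Tgfbr2 also had a lower mean in Il10ra_mKO and a higher level in Il10_KO, though their resident arrays overlapped. In the Il10_KO comparison 8 of the 9 genes and 56.3% of all genes were higher. There 44.5% of all genes had a larger absolute difference than Cx3cr1. The Cx3cr1 locus carried Cre in Il10ra_mKO and GFP in the other arrays.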

How the results depend on the processing

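In all 14 alternatives for the resident comparison 0 of the 9 lineage genes passed. The direction held in all 14 for Cx3cr1 (-0.66 to -0.32), Itgam (-0.32 to -0.17), Adgre1, Itgax, Spi1 and Tgfbr2. Several of the 14 could not change it. The brightness filter, the variance models, a fit of the resident arrays alone and, with 1 probe set for each member, the row rule alter only SE and p. These settings therefore say nothing on whether a direction holds. Csf1r turned to 0.0414 with a common median and to 0.0386 with the 4 WT arrays as 1 group, and ran from -0.13 to 0.11 with an array left out. Maf ran from -0.57 to 0.14 and Tgfbr1 from -0.15 to 0.59 with an array left out. The count of all genes passing, 1 in the main setting, was 12 with the brightness filter, 138 with quantile normalization, 146 with a common median, 4 without the variance trend, 70 with the 4 WT arrays as 1 group, 0 with runs of sample numbers as a block, and 0 to 267 with an array left out. The cause was not tested, except that leaving out an Il10ra_mKO array takes the spread from WT alone. A scaling moved the median of all genes by at most 0.048. An alternative chosen after seeing the data counted members outside the WT range with 1 Il10ra_mKO array left out, 6 either way against 2 with both; over all genes a single array lay outside that range for 42.1% (array 1) and 49.2% (array 2), so the 6 are not read as a separation. With the 4 WT arrays as 1 group the Il10_KO difference was 0.55 for Cx3cr1, 0.73 for Spi1, 0.10 for Csf1r and 0.02 for Maf.

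Of 43 other genes named with a difference or level and run under these alternatives, 7 passed in some (Fn1, Nr1h3, Tfec, Folr2, Il10ra, Clec9a and Fcrls, the last in 10 of 14) and 38 kept 1 direction in all. Here too the brightness filter, the variance models and a fit of the resident arrays alone could not change a direction. Without Il10ra_mKO array 1 the difference was -0.48 for Mrc1 and -0.31 for Mef2c, and without array 2 it was 0.24 for Fermt3, 0.26 for Grb2 and 0.24 for Irf8. Smad3 turned to -0.0395 with quantile normalization, -0.0496 with the 4 WT arrays as 1 group and -0.0028 with the runs as a block, and ran from -0.0124 to 0.0132 with an array left out. Il34 turned to 0.0033 and Klf2 to 0.0123 with a common median. With an array left out Tgfb1 ran from -0.0043 to 0.30, Klf2 from -0.66 to 0.59 and Sorbs3 from -0.67 to 0.11. Replicate numbers name arrays and pair nothing.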
